A study of Rattus norvegicus with 20 samples.

Results

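The mir-181 family was described across 15 rat tissues and serum, by taking every listed miRNA precursor (the hairpin from which a miRNA is cut) whose name begins rno-mir-181 and every mature arm (the short strand cut from a side of the hairpin) with the matching name. This gave 6 of 444 precursors, namely rno-mir-181a-1, a-2, b-1, b-2, c and d, and 9 of 577 mature arms. The rule uses names alone, and all 6 precursors passed the count filter. The same 6 hairpins were present among 388 RefSeq miRNAs, with the same reads in every library.

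Male Long Evans rats at postnatal day 35, all untreated, gave the small RNA libraries, which were made to look for tissue origins of serum miRNAs relative to brain. There were 3 libraries of single brain hemispheres, 3 of serum, and 1 pool of miRNA from 3 rats for each of 14 other tissues: fat, heart, kidney, large intestine, liver, lung, muscle, pancreas, skin, small intestine, spleen, stomach, testes and thymus. The paper takes the tissues and the serum from the same 3 rats, so brain, serum and pools are not independent animals. It does not say whether equal replicate numbers of brain and serum mark the same rat, and the main tests did not pair them. A pool has no replicate, so its interval covers counting error only, and p-values against serum measure the spread between libraries that the labels call replicates. Levels are reads scaled to 1000000 reads of the same annotation list (RPM), given as mean ± SD for brain and serum and with a 95% Wilson interval for a single library.

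Precursor totals were 388275 to 1204552 reads in brain, 162080 to 3685761 in the pools and 7556 to 10862 in serum. A level of 3 reads, the limit that a count of 0 allows, corresponded to at most 18.5 RPM in a tissue library and to 276 to 397 RPM in a serum library. The tissue labels were checked against marker precursors: the summed level of 6 neuronal precursors was 40609 RPM in brain and at most 154 RPM in any pool, and that of 4 leukocyte precursors was highest in thymus (65829 RPM) and spleen (62260 RPM). The library labelled pancreas went against its label, since mir-216a and mir-217, which mark acinar cells, were at 0 and the liver precursor mir-122 stood at 14862 RPM, beside 14726 RPM in liver. Serum 2 stood apart with 142147 RPM of mir-122, against 21175 and 10340 RPM in serum 1 and 3.

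MicroRNAs are loaded into Argonaute proteins and repress messenger RNAs that pair with the seed, bases 2 to 8 of the mature strand. The mir-181 hairpins lie in 3 clusters, each joining an a and a b hairpin or the c and d hairpins. In the thymus miR-181a is known for tuning the sensitivity of the T cell receptor during selection of developing T cells, and in the brain members of the family are expressed in neurons and glia. In these bulk libraries, fewer cells of a type and less RNA per cell cannot be told apart.

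In the RefSeq annotation of GRCr8, Mir181a-1 and Mir181b1 lie on chromosome 13 within the long noncoding RNA LOC108352541, between the protein-coding genes Nr5a2 and Ptprc. Mir181a2 and Mir181b2 lie on chromosome 3, overlapping the nuclear receptor gene Nr6a1 and the long noncoding RNA LOC120101539. Mir181c and Mir181d lie on chromosome 19 between Zswim4 and Nanos3. Positions are not given because the reads were aligned to Rn5.

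The 4 mature 5p strands are shown because they carry nearly all family reads and share 1 seed. They were taken from RefSeq GRCr8, 5′ to 3′, with the seed in capitals.
rno-miR-181a-5p: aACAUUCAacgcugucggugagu
rno-miR-181b-5p: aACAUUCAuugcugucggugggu
rno-miR-181c-5p: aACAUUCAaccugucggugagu
rno-miR-181d-5p: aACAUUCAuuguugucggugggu
All 4 read ACAUUCA in the seed, so the strands differed only outside it. Counting from 1 at the 5′ end, with the base of the strand named first written first, miR-181a-5p and miR-181b-5p differed by A9U, C10U and A21G. A single substitution, C12U, separated miR-181b-5p from miR-181d-5p. The 22-base miR-181c-5p was 1 edit away from the 23-base miR-181a-5p, the edit being a missing base.

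The 3p strands, from the opposite side of each hairpin, are shown because their seeds divide the family differently and because the strands of the a copies differ.
rno-miR-181a-1-3p: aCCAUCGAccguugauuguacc
rno-miR-181c-3p: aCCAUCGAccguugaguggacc
rno-miR-181a-2-3p: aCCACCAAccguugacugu
rno-miR-181b-1-3p: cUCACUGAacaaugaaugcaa
The seed CCAUCGA was shared by miR-181a-1-3p and miR-181c-3p, which differed by U16G and U19G. The other 2 strands each had a seed of their own.

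The hairpin of mir-181c is shown with both mature strands in capitals, since its listed strands held the smallest part of its precursor reads.
rno-mir-181c: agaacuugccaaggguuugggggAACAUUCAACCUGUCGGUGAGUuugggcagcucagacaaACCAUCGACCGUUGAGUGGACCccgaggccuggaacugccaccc
The 5p and 3p strands of mir-181c accounted for 58.7% ± 1.31 (SD, n = 3) of its precursor reads in brain and 39.6% to 68.2% in the pools. For mir-181a the 5p and 3p strands accounted for 97.9% ± 0.195 (SD, n = 3) in brain, for mir-181b 90.2% ± 0.501 and for mir-181d, of which the list holds only the 5p strand, 84.7% ± 1.87. Levels of mir-181c therefore stood lower beside its relatives on the mature list than on the precursor list.

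The family made up a larger part of miRNA reads in thymus, brain and lung than in the other tissues. It accounted for 20.8%, 22.9% and 25.9% of precursor reads in brain 1, 2 and 3 (23.2% ± 2.53, SD, n = 3), for 30.8% in the thymus pool and for 12.8% in the lung pool. The other pools ran from 0.575% in the library labelled pancreas to 6.24% in fat, and the median of the 14 pools was 2.45%. Thymus lay above all 3 hemispheres and all 3 hemispheres lay above the other 13 pools. In rank, mir-181a-1 and a-2 were the 2 most abundant of all listed precursors in each hemisphere, ranks 2 and 3 in thymus and ranks 5 and 6 in lung, but rank 29 and 28 in liver.

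**Figure D1:**
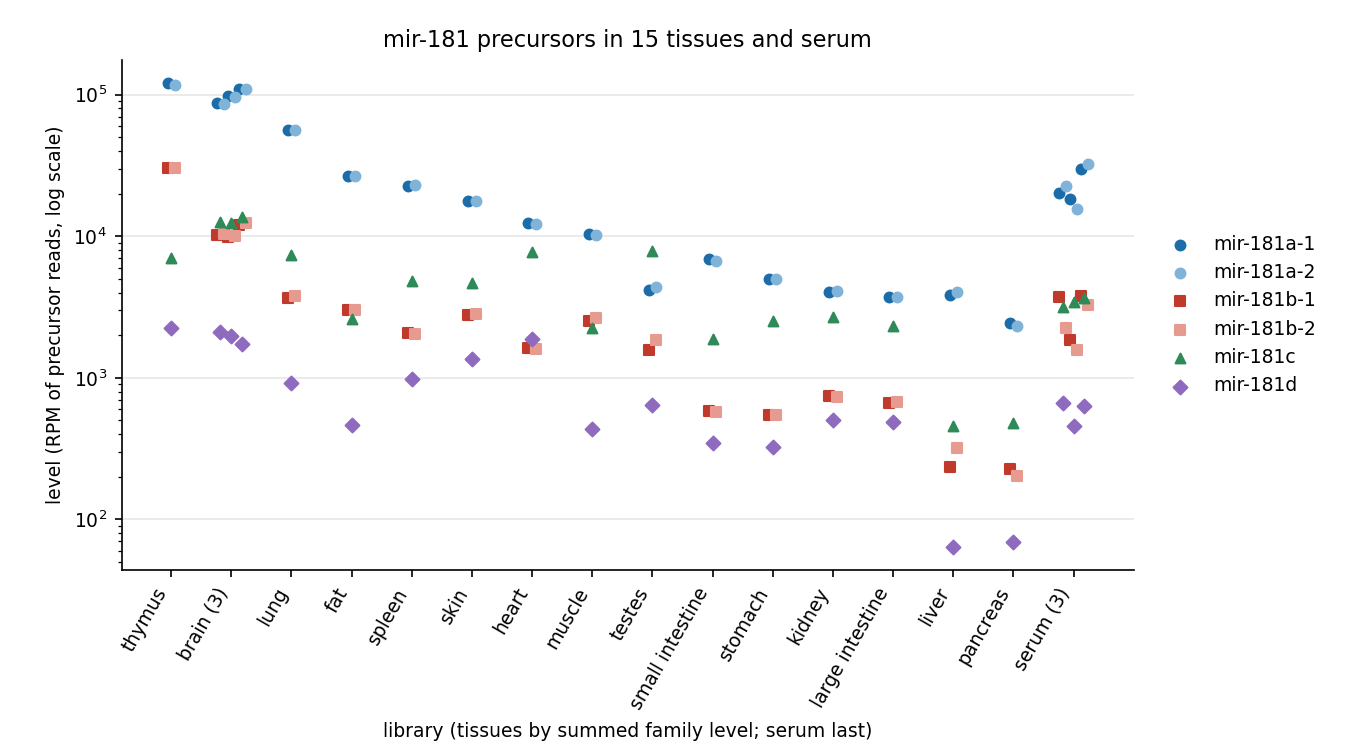
Level of each mir-181 precursor (RPM of precursor reads, log scale) in 15 tissues, ordered by the summed level of the family, and in serum; each point is 1 library, with 3 for brain and 3 for serum. The a copies reach 120458 RPM in thymus and 86982 to 109000 RPM (a-1) in brain, b-1 and b-2 show a wider gap between thymus and brain, and c is the member with brain highest.

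The a hairpins were the most abundant members in every library except the testes pool, where c was highest. rno-mir-181a-1 stood at 86982, 97743 and 109000 RPM in the 3 hemispheres (97908 ± 11010 RPM), at 120458 RPM in thymus (95% interval 119674 to 121247) and at 56690 RPM in lung. Over the 14 pools its level ran from 2453 RPM in the library labelled pancreas to 120458 RPM, with a median of 8669 RPM. Thymus was above every hemisphere, and the hemispheres were above the other 13 pools without overlap. On the log2 scale with 1 RPM added, and relative to the median of the 15 tissues (10431 RPM), mir-181a-1 was 3.53 higher in thymus, 3.23 ± 0.16 (SD, n = 3) higher in brain and 2.44 higher in lung.

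rno-mir-181a-2 followed mir-181a-1 closely. It stood at 86244, 96823 and 109989 RPM in brain 1, 2 and 3, at 117552 RPM in thymus and at 55960 RPM in lung, and its pools ranged from 2320 to 117552 RPM with a median of 8481 RPM. Reads of the a-1 copy were 48.8% to 51.4% of a-1 plus a-2 reads in every tissue library. Both copies give the same 5p strand, which makes up nearly all of their reads, so the precursor list does not show which copy the reads came from. The same holds for b-1 and b-2, which divided their reads between 42.3% and 52.9% in the tissues.

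The b hairpins had the steepest profile toward thymus. rno-mir-181b-1 stood at 10118, 9805 and 12069 RPM in brain 1, 2 and 3 (10664 ± 1227 RPM), at 30382 RPM in thymus (95% interval 29970 to 30799), and at 228 to 3661 RPM in the other 13 pools. Thymus was therefore 2.85-fold above the brain mean for b-1 and 2.77-fold for b-2, whereas it was 1.23-fold above it for a-1 and 1.20-fold for a-2. rno-mir-181b-2 gave 10346, 10008 and 12306 RPM in the hemispheres, 30128 RPM in thymus and 3770 RPM in lung, the next pool. Fat, skin and muscle came after lung for both b copies, and of the 14 pairs of tissues next to each other in the order, 6 overlapped for b-1 and 8 for b-2.

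rno-mir-181c was the member with brain highest. Its level was 12626, 12428 and 13609 RPM in brain 1, 2 and 3 (12888 ± 632 RPM), and every hemisphere was above every pool. It was followed by testes (7848 RPM), heart (7774 RPM), lung (7367 RPM) and thymus (7072 RPM). The interval of testes overlapped that of heart, and lung overlapped thymus, so these neighbours were not told apart beyond counting error. The lowest levels were 476 RPM in the library labelled pancreas and 460 RPM in liver.

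rno-mir-181d, the partner of c in its cluster, was the least abundant member in 19 of 20 libraries, the exception being heart, where it was above both b copies. It stood at 2094, 1966 and 1746 RPM in the hemispheres (1935 ± 176 RPM), at 2235 RPM in thymus (95% interval 2124 to 2352) and at 1873 RPM in heart (95% interval 1765 to 1988). Heart fell within the range of the hemispheres, and thymus was above all 3. The pools ranged from 64.0 RPM in liver to 2235 RPM, with a median of 495 RPM.

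Brain and thymus were the 2 highest tissues for 5 of 6 members, all but c. Of the 295 precursors that reached 10 counts in 3 or more tissue libraries, this held for 15 (5.08%). In RPM all 6 members were at least 1 log2 unit above the tissue median in both brain and thymus, as were 27 of the 295 precursors (9.15%). With TMM-scaled libraries or DESeq2 size factors this held for the a and b copies only. With TMM c stood at 0.59 in brain and 0.34 in thymus, and d at 0.60 in brain. With DESeq2 size factors c stood at 0.12 and d at -0.079 in brain. Thymus was the highest tissue for 5 of 6 members and for 22 of 295 precursors (7.46%), whereas brain was highest for 1 of 6 members and for 126 of 295 precursors (42.7%). Every hemisphere was above every pool for 1 of 6 members and for 107 of 295 precursors (36.3%). The counts of members describe 4 distinct 5p strands, since the copies share reads. The counts over the 295 precursors include those members. They also include, in the 15, the 27 and the 22, mir-3570, whose gene overlaps Mir181a-1.

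Among the pools below lung, mir-181a-1 stood at 26787 RPM in fat, 22795 RPM in spleen, 17799 RPM in skin, 12480 RPM in heart and 10431 RPM in muscle. Small intestine (6908 RPM), stomach (4953 RPM), testes (4169 RPM), kidney (4038 RPM), liver (3855 RPM) and large intestine (3740 RPM) formed a lower group above the library labelled pancreas. The members did not share this order. Testes held the second highest level of c and a low level of a, heart the third highest level of d, and fat the fourth highest level of a but a level of d (466 RPM) below the median of the pools.

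This order depended on scaling in part. With TMM-scaled libraries thymus remained highest for a-1, a-2, b-1 and b-2 and brain came next, but heart became the highest tissue for c (8058 against 6736 in brain, reads per 1000000 of effective library size) and for d (1942 against 1786 in thymus). With DESeq2 size factors thymus was highest for all 6 members, and lung was above brain for a-1 (52967 against 34302), a-2, c and d. Brain libraries were scaled down most by both methods, and the thymus excess over the brain mean for mir-181a-1 was 1.89-fold with TMM and 6.10-fold with DESeq2 size factors. That thymus exceeded brain for the a and b copies held under each scaling.

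Leukocyte precursors moved with part of this pattern. mir-142, which is restricted to blood cells, stood at 65299 RPM in thymus, 59167 RPM in spleen, 11488 RPM in fat, 1629 RPM in lung and 138 RPM in brain. It was above lung in the library labelled pancreas (5815 RPM) and in liver (4314 RPM), where mir-181a-1 stood at only 2453 and 3855 RPM. The 4 leukocyte precursors together were 1.06-fold higher in thymus than in spleen, a sum made up almost wholly of mir-142, whereas mir-181b-1 was 14.6-fold and mir-181a-1 5.28-fold higher. The other 3 were lower in thymus than in spleen: mir-150 stood at 281 against 2498 RPM, mir-223 at 33.4 against 365 RPM and mir-155 at 216 against 230 RPM. Neuronal precursors were at 28.8 RPM in thymus and 5.85 RPM in lung, beside 40609 RPM in brain. The part of cell type content in the levels of the family was not tested.

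The make-up of the family differed between tissues more than between hemispheres. In brain a-1 plus a-2 made up 84.3% ± 1.02 of family reads, b-1 plus b-2 9.30% ± 0.589, c 5.58% ± 0.420 and d 0.846% ± 0.165 (SD, n = 3). In thymus the a copies made up 77.3%, the b copies 19.7%, c 2.30% and d 0.726%. In testes they made up 41.8%, 16.7%, 38.4% and 3.14%, the pool with the least a and the most c.

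**Figure D2:**
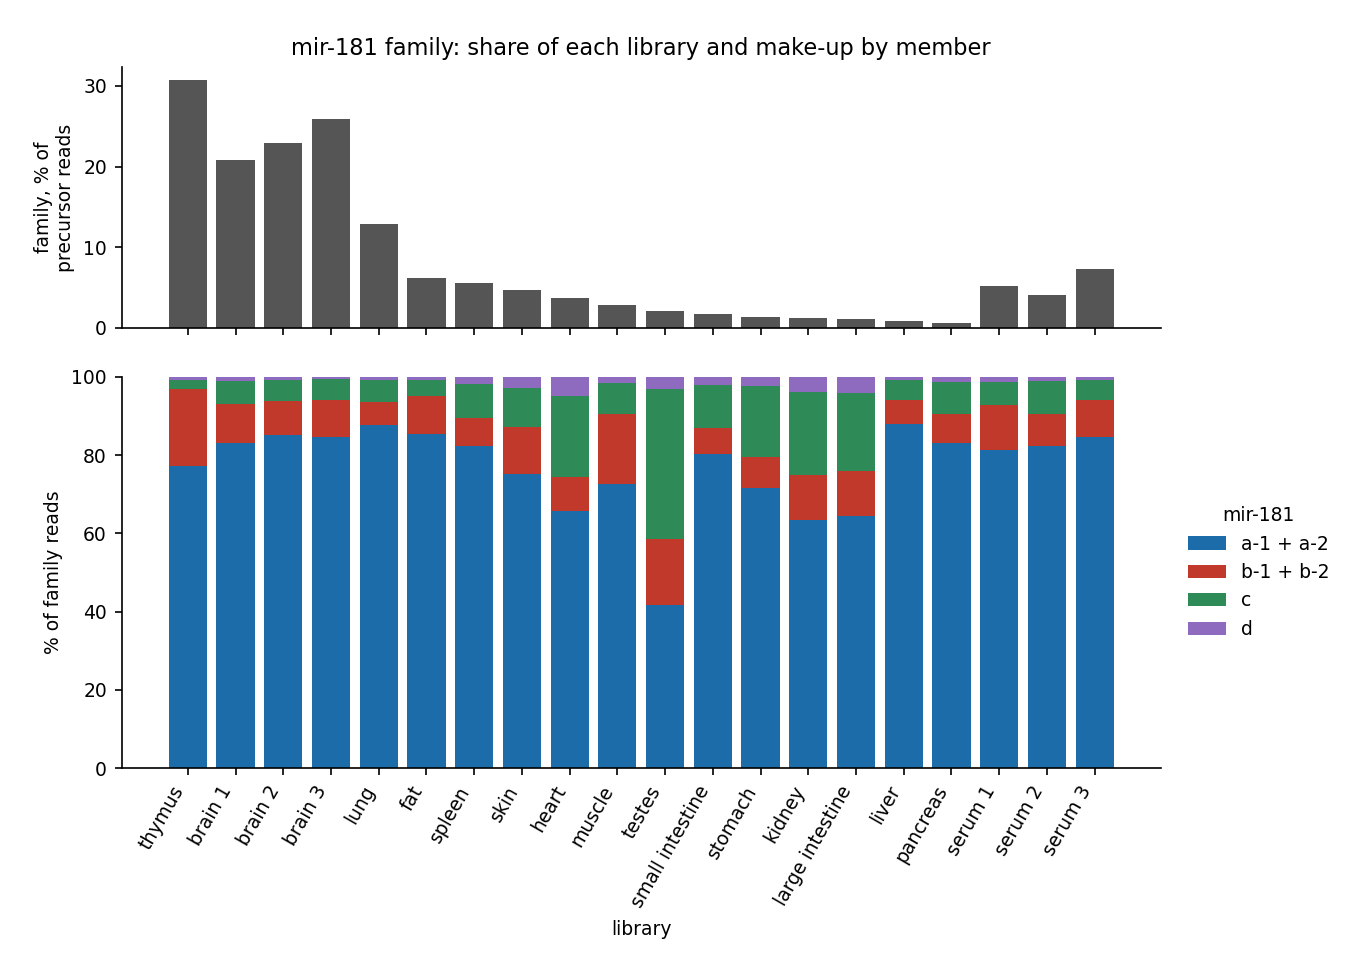
Upper plot, reads of the 6 mir-181 precursors as a percent of all precursor reads in each of 20 libraries; lower plot, the percent of family reads given by the a copies, the b copies, c and d. The thymus bar is highest at 30.8%, testes is the pool with the largest c part at 38.4%, and the 3 serum libraries have an a part near that of the hemispheres.

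The part of b in reads of a plus b was 10.6%, 9.24% and 10.02% in brain 1, 2 and 3. It was 20.3% in thymus, 19.9% in muscle and 28.6% in testes, all above the hemispheres, and 6.19% in lung, below them. The mature 5p strands, counted on their own list, gave 9.25% ± 0.677 (SD, n = 3) in brain, 19.0% in thymus, 27.5% in testes and 5.59% in lung. Lung and thymus, which were both rich in mir-181a, thus lay on opposite sides of brain in this ratio.

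Reads of the c and d cluster were 7.06%, 6.29% and 5.94% of family reads in brain 1, 2 and 3. They were 3.02% in thymus, the lowest of the tissues, 25.6% in heart, 25.03% in kidney, 24.2% in large intestine, 20.6% in stomach and 41.5% in testes. The spread between hemispheres was thus small beside the range over pools, whose median was 11.6%. Within the cluster, d made up 13.1% ± 1.51 (SD, n = 3) of c plus d in brain, 24.01% in thymus and 7.56% in testes.

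**Figure D3:**
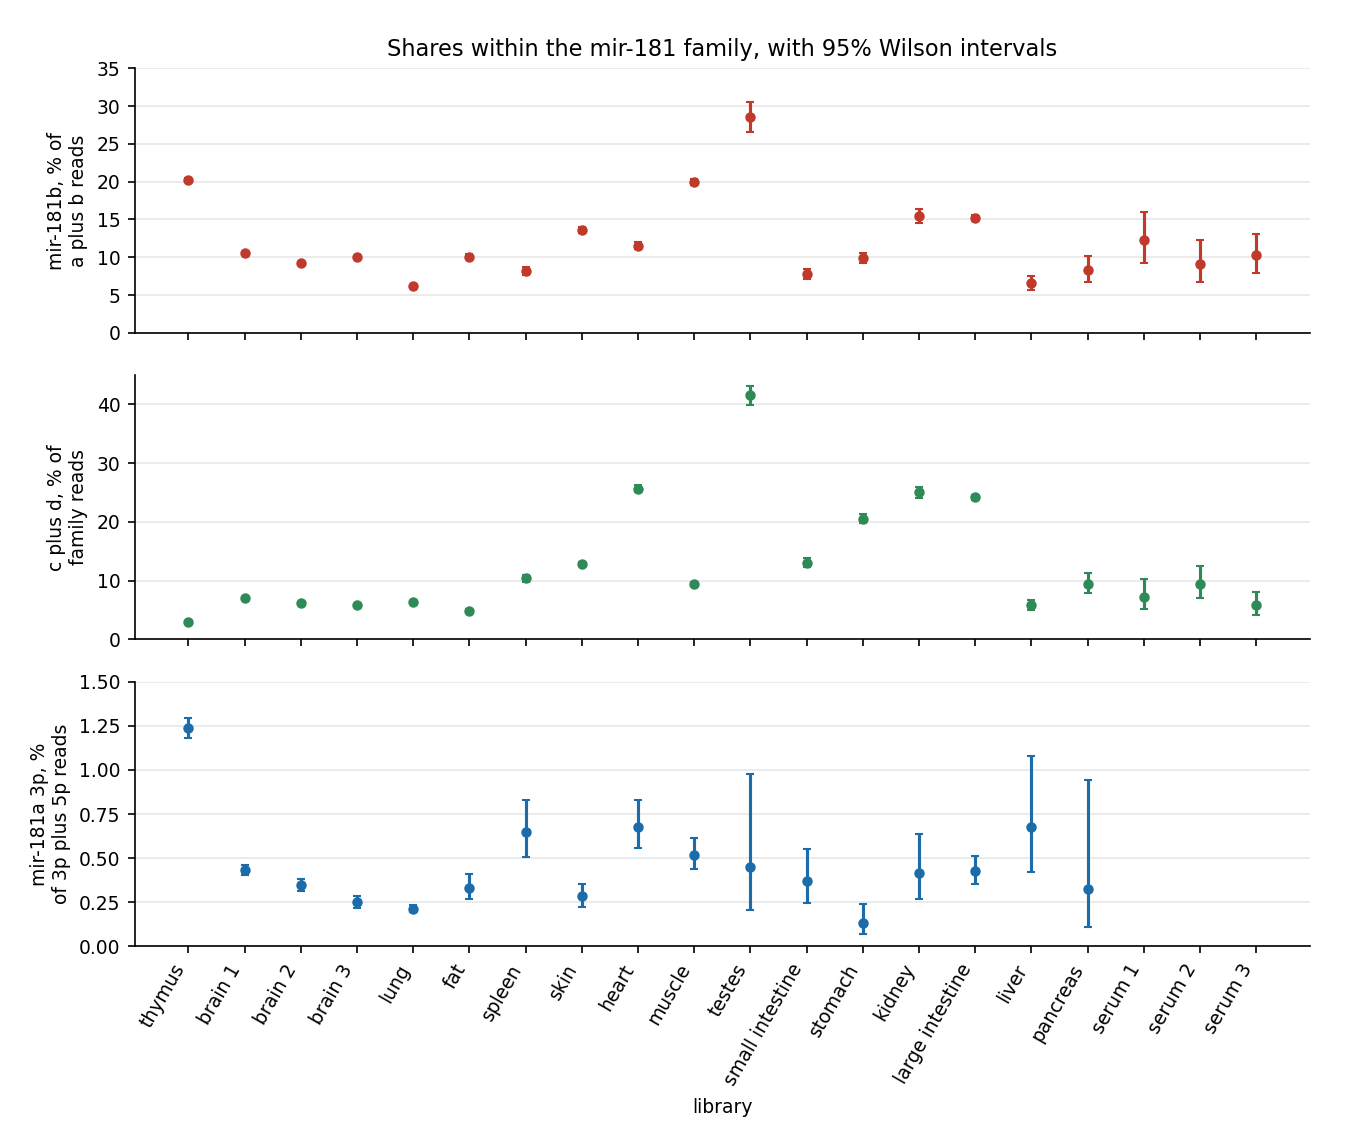
Shares within the family in each library, with 95% Wilson intervals: b reads as a percent of a plus b, c plus d reads as a percent of family reads, and 3p reads as a percent of 3p plus 5p reads of mir-181a with the reads listed for miR-3570 added (serum is left out of the lowest plot because no 3p read was counted there). Testes is highest in the upper and the middle plot at 28.6% and 41.5%, and thymus is highest in the lowest plot at 1.24%.

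The 5p strand held most strand reads of mir-181a, b and c in the tissues, where both strands were listed. miR-181a-5p stood at 199509, 223513 and 254382 RPM of mature reads in brain 1, 2 and 3, at 282566 RPM in thymus, at 132812 RPM in lung and at 7372 RPM in the library labelled pancreas. miR-181b-5p stood at 22955 ± 2757 RPM in brain, 66404 RPM in thymus and 7865 RPM in lung. For miR-181c-5p brain was at 8547 ± 296 RPM and testes next at 7885 RPM, and for miR-181d-5p thymus was at 2419 RPM, heart at 2077 RPM and brain at 1939 ± 214 RPM.

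The 3p strand of mir-181a came almost only from the a-1 hairpin on this list. miR-181a-1-3p had 442.5, 187.5 and 104.5 estimated reads in brain 1, 2 and 3 and 937.5 in thymus, whereas miR-181a-2-3p had 0 reads in 19 libraries and 2 in fat. For the b hairpins, miR-181b-1-3p had 121 reads in thymus and 24 over the 3 hemispheres, and miR-181b-2-3p had 5 reads in all pools together. These counts cannot weigh the copies, because the annotated a-2 strand has only 19 bases. The even division of the precursor reads cannot weigh them either, since the copies share the 5p strand that makes up nearly all of those reads.

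miR-3570 shares this locus. Mir3570 overlaps Mir181a-1 on the opposite strand in RefSeq, and the deposited reads of miR-3570 and miR-181a-1-3p were equal in 20 of 20 libraries, with values ending in 0.5 of a read in 9 of them. Each listed value of miR-181a-1-3p is therefore 1 of a pair of equal values at the same interval. The precursor mir-3570 held 0.0450% to 0.0456% of the reads of mir-181a-1 in every library.

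As listed, 3p reads were 0.217%, 0.173% and 0.125% of mir-181a strand reads in brain 1, 2 and 3 (0.172% ± 0.0459, SD, n = 3), 0.623% in thymus and 0.107% in lung. With the miR-3570 reads added they were 0.343% ± 0.0915 in brain and 1.24% in thymus, with the next pool at 0.678%. Thymus had the highest share in both counts and was above each hemisphere in both. As listed, its interval (0.585% to 0.664%) overlapped those of liver, testes and the library labelled pancreas, which rest on 1.5 to 8.5 reads. For mir-181c the 3p share was far larger, 4.28% ± 0.412 (SD, n = 3) in brain, 5.997% in thymus and 2.60% to 6.74% over the pools. For mir-181b it was 0.0574% ± 0.0160 in brain and 0.346% in thymus, and the pools ran from 0% in liver to 1.37% in the library labelled pancreas (1 read of 73), with a median of 0.208%. Thymus was not the highest for mir-181b, since spleen stood at 1.03% (8 reads) and kidney at 0.488% (4 reads). Skin was also above thymus, by a small margin.

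The quasi-likelihood test of edgeR was then used to compare brain with the 14 pools as a single group, so that the error includes the differences between tissues. Of 295 precursors tested, 71 were higher in brain (24.1%) and 55 were lower (18.6%) at an adjusted p under 0.05. Of the 6 members, 0 passed in edgeR and 0 had an unadjusted p under 0.05. DESeq2 called 2 of them, b-1 and b-2. The median log2 fold change of the 6 was 1.18 in DESeq2, beside -0.26 with its size factors in edgeR. By default DESeq2 can replace counts that lie far from their group, and whether it replaced those of thymus was not tested. In edgeR the log2 fold changes of brain over pools were 1.42 (SE 0.74, adjusted p = 0.115) for a-1 and 1.43 (SE 0.73, adjusted p = 0.109) for a-2. For b-1 and b-2 they were 0.80 and 0.82, for c 0.70 and for d 0.35, with adjusted p from 0.292 to 0.680. With 1 hemisphere left out in turn, b-1 came to 0.36 to 0.53, b-2 to 0.38 to 0.55 and d to 0.048 to 0.24. With DESeq2 size factors in edgeR, a-1 and a-2 came to 0.28 and 0.30. The median of the 6 was 0.81, beside 0.17 over all precursors tested.

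In edgeR this outcome turned on the thymus pool for the a and b copies. Without it, 73 of 292 precursors were higher in brain (25.0%) and 4 of 6 members were among them. The log2 fold change of mir-181a-1 then was 1.88 (SE 0.57, edgeR adjusted p = 0.0151), and that of mir-181b-1 rose from 0.80 to 1.78 (SE 0.51, edgeR adjusted p = 0.0107). Thymus was already seen to be above brain for the a and b copies. A larger brain excess without it was therefore fixed beforehand and is no separate support. These p-values count hemispheres of 1 tissue as replicates and can be too small. mir-181c (0.67) and mir-181d (0.40) did not pass without thymus either. With library totals in place of TMM, a-1, a-2 and c passed (adjusted p = 0.0425, 0.0411 and 0.0338), while 123 of 295 precursors (41.7%) were higher and 24 (8.14%) lower. DESeq2 found 68 higher (23.1%) and 119 lower (40.3%).

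**Figure D4:**
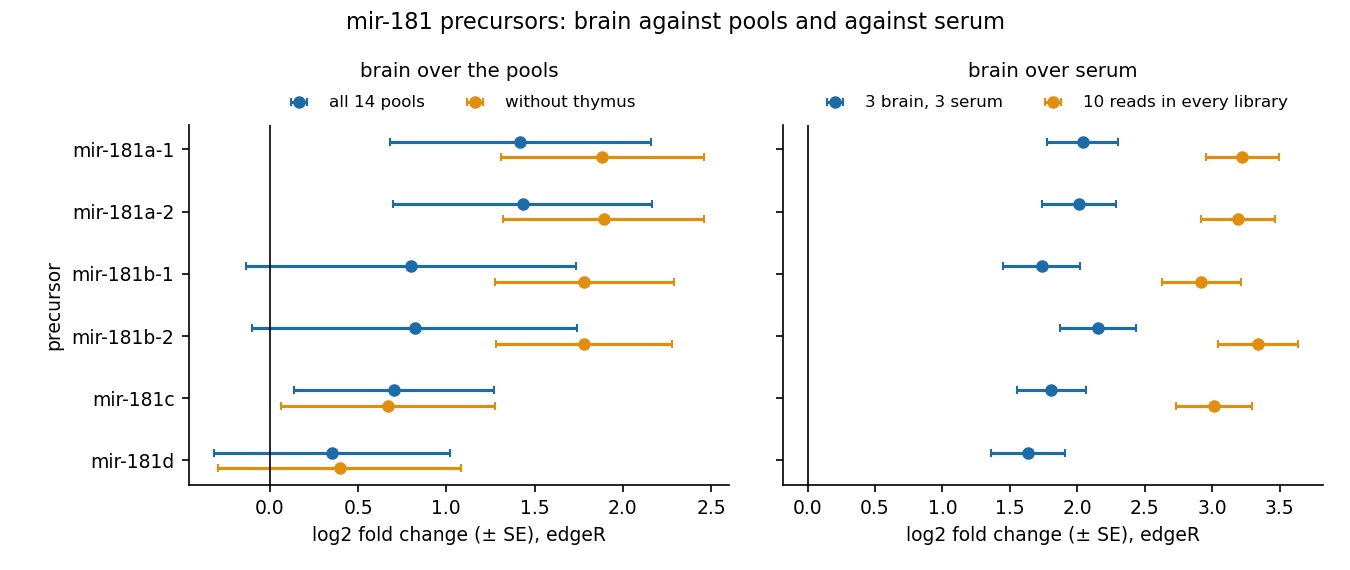
Log2 fold change of brain over the pools (left) and over serum (right) for the 6 precursors, as edgeR estimates with SE bars. Without the thymus pool the estimates of b-1 and b-2 move from 0.80 and 0.82 to 1.78, and in serum all estimates lie above 0, at 1.63 to 2.16 or, with precursors that had 10 reads in every library, at 2.92 to 3.34 (d was not tested there).

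On the mature list 58 of 290 strands were higher in brain than in the pools (20.0%) and 70 lower (24.1%). Of the 9 mature arms, 7 were tested, and 0 passed in edgeR or had an unadjusted p under 0.05, while DESeq2 called miR-181a-1-3p, miR-181a-5p and miR-181b-5p. miR-181a-5p had a log2 fold change of 0.95 (SE 0.86, adjusted p = 0.352), and the other tested strands lay between -2.11 and 0.42. Without the thymus pool, miR-181a-1-3p, miR-181a-5p and miR-181b-5p passed, with log2 fold changes of 1.53, 1.69 and 1.60, among 62 of 288 strands higher in brain (21.5%) and 73 lower (25.3%). Thymus was above brain for each of these strands, so a larger brain excess without it was fixed beforehand here too. With library totals miR-181a-5p alone passed, where 88 of 290 strands (30.3%) were higher and 29 lower, and DESeq2 found 67 higher (23.1%) and 101 lower (34.8%). miR-181a-2-3p and miR-181b-2-3p had too few reads to be tested.

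Every member was present in serum, and each was lower there than in brain. mir-181a-1 stood at 20107, 18404 and 29747 RPM in serum 1, 2 and 3 (22753 ± 6116 RPM), which is 23.2% of its brain mean. mir-181c stood at 3176, 3406 and 3657 RPM, mir-181b-1 at 3706, 1841 and 3783 RPM and mir-181d, from 5 reads in each library, at 662, 460 and 631 RPM. The family made up 5.25%, 4.12% and 7.33% of precursor reads in serum 1, 2 and 3. Every hemisphere was above every serum library for all 6 members, and the pools of spleen (22795 RPM) and fat (26787 RPM) lay within the serum range of mir-181a-1.

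Of 235 precursors tested by edgeR, 105 were higher in brain than in serum (44.7%) and 44 lower (18.7%), and 6 of 6 members were among the higher. mir-181d reached 10 counts in brain libraries only, so it passed the filter through the group where it is high, and its call is no separate support. The log2 fold changes were 2.04 (SE 0.26, edgeR adjusted p = 2.96e-05) for a-1, 2.01 for a-2, 1.74 for b-1, 2.16 for b-2, 1.81 for c and 1.63 (SE 0.28, edgeR adjusted p = 0.000226) for d. Their median was 1.91, below the median of 2.15 over all precursors tested, many of which had few or no serum reads. Among the 51 precursors that reached 10 counts in every library, 5 members were tested. Their values ran from 2.92 to 3.34 beside a median of 0.69. All 5 passed, but the share of the 51 that passed was not computed. Without serum 2 the calls of the 6 members held, of which that of d is again no separate support. The share over all precursors was not computed there either.

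On the mature list 112 of 212 strands were higher in brain (52.8%) and 30 lower (14.2%), and 6 of 6 tested strands of the family were called. Of these, miR-181a-1-3p, miR-181c-3p and miR-181d-5p reached 10 counts in brain libraries only, so their calls are no separate support. Among the 35 strands with 10 counts in every library, miR-181a-5p, miR-181b-5p and miR-181c-5p were tested. Their log2 fold changes ran from 3.19 to 3.23 beside a median of -0.19. All 3 passed, but the share of the 35 that passed was not computed. miR-181a-5p stood at 64661, 50983 and 89552 RPM in serum 1, 2 and 3, with a log2 fold change of 2.24 (SE 0.38, edgeR adjusted p = 2.95e-06). For miR-181b-5p, miR-181c-5p and miR-181d-5p the log2 fold changes were 2.24, 2.22 and 1.92. miR-181a-1-3p had 0 reads in all serum libraries and miR-181c-3p had 0, 0 and 2. Over the 3 serum libraries together, with 17336 mature reads, the limit of 3 reads was 173 RPM, so the brain mean of miR-181a-1-3p, 380 RPM, was at least 2.19-fold higher (edgeR adjusted p = 0.000176). For miR-181c-3p the brain mean of 381 RPM was 3.30-fold the serum level of 115 RPM, with an exact Poisson interval of the serum reads of 0.914 to 27.3, which includes no difference. The edgeR adjusted p for miR-181c-3p was 0.0143, and the call was lost with library totals, with DESeq2 and without serum 1 or 2.

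The make-up of the family in serum overlapped that of brain. The b part of a plus b was 12.2%, 9.12% and 10.2% in serum 1, 2 and 3, overlapping 9.24% to 10.6% in brain and below 20.3% in thymus. The c and d part of the family was 7.51% ± 1.77 in serum and 6.43% ± 0.577 in brain (SD, n = 3 each). Several pools also lay within the serum ranges. For the b part these were fat (10.1%), heart (11.5%) and stomach (9.87%), and for the c and d part, where serum ran from 5.85% to 9.38%, they were lung (6.46%) and liver (5.86%). No pool lay within both ranges. The serum ranges rest on 1426 family reads over the 3 libraries and leave out counting error, so a pool outside them is not thereby told apart from serum.

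Precursors with the most similar profile were named by Pearson's r of log2(RPM + 1) over the 15 tissues, as a description without a test. The points share libraries and depth, and 295 precursors were compared. For mir-181a-1 they were mir-3570 (r = 0.998), whose reads overlap its own as described, mir-128-2 (r = 0.840) and let-7i (r = 0.834). For mir-181a-2 they were mir-3570 (r = 0.997), mir-128-2 (r = 0.840) and let-7i (r = 0.836). For mir-181b-1 they were mir-128-2 (r = 0.924), mir-3570 (r = 0.920) and mir-421 (r = 0.860), and for mir-181b-2 the same 3, at 0.921, 0.916 and 0.863. mir-128-2 had 3489 RPM in brain and 1836 RPM in thymus but 22.6 RPM in lung, where mir-181a-1 stood at 56690 RPM.

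The c and d hairpins had other nearest profiles. For mir-181c these were mir-298 (r = 0.861), mir-324 (r = 0.832) and mir-103-2 (r = 0.824), and for mir-181d let-7i (r = 0.846), mir-421 (r = 0.804) and mir-298 (r = 0.785). Within the family, r was 0.947 between c and d, 0.922 between a-1 and b-1 and 0.689 between a-1 and c. The a and b hairpins thus resembled each other, as did c and d, and the a and c hairpins were less alike.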

How the data were processed

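RNA was extracted by the authors with miRNeasy kits, made into TruSeq small RNA libraries and read on a MiSeq. Bases under Phred 20 were trimmed, Bowtie was run against Rn5, and reads were assigned to miRBase 21 and RefSeq miRNAs in Partek Flow and Strand NGS. The deposited values are estimated counts (expected counts, not normalized) for 1409 features, in which 3 annotations are stacked, so totals were taken within each. RPM, shares, 95% Wilson intervals and floors of 3 reads were computed from them and cover counting error only. Counts were rounded for edgeR 4.0.16 (R 4.3.3, quasi-likelihood, TMM, at least 10 counts in at least 3 libraries, Benjamini-Hochberg, threshold 0.05), and DESeq2 1.42.0 was an alternative. The fits were also run on simulated independent counts. These do not copy hemispheres of 1 tissue set against unlike tissues, so they do not show that p-values against the pools are sound. The 3 hemispheres are 1 tissue, so p-values against the pools can be too small. Brain was averaged before each precursor was centred on its tissue median with 1 RPM added. Members and markers were chosen with earlier results of these data known. All members and arms are named, with the 3 most alike precursors for each member. Sequences and neighbours came from RefSeq GRCr8, which held the mature strands printed. Python 3.11.15, pandas 2.3.3, NumPy 2.4.6, statsmodels 0.14.6 and Matplotlib 3.10.9 were used.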

Additional observations from a re-analysis of the deposited data

How the results depend on the processing

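Brain against the pools gave 0 precursors and 0 mature arms past the threshold with TMM. With library totals 3 precursors and 1 arm passed, with the DESeq2 test 2 and 3, and without the thymus pool 4 and 3. The DESeq2 test can replace counts far from their group, so it may not be separate from leaving out thymus, which was not tested. No count filter, 10 counts in every library, DESeq2 size factors in edgeR, the pancreas or lung pool left out (lung was added after seeing the data), hemispheres summed to 1 library and the RefSeq list left the counts at 0, as did leaving out each hemisphere (0 to 0). With summed hemispheres brain has 1 sample, assumed to vary like the pools, so that count says little about stability. With DESeq2 size factors a-1 fell to 0.28 and a-2 to 0.30. Signs turned for low estimates that had not passed: with DESeq2 size factors b-1 came to -0.50, b-2 to -0.47, c to -0.062, d to -0.53 and miR-181b-5p to -0.19, with the DESeq2 test c came to -0.062 and d to -0.53, and without a filter d came to -0.0054. miR-181a-1-3p, at -0.23, turned to 0.99 with library totals, 1.27 in DESeq2, 0.30 with summed hemispheres, 1.53 without thymus and -0.18 to 0.15 without a hemisphere. miR-181d-5p, at -0.02, turned to 1.13 with library totals, 0.13 without a filter, 0.30 with 10 counts in every library, 0.23 without thymus, 0.51 with summed hemispheres and 0.081 to 0.33 without a hemisphere. The median shift in log2 fold change over all precursors tested was 1.03 with library totals and -0.67 with DESeq2 size factors. mir-181d in brain came to -0.079 relative to the tissue median with DESeq2 size factors.

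Against serum, the count of precursors stayed at 6 or, where d was not tested, 5 (5 to 6 with 1 library left out). The count of mature arms was 3 with 10 counts in every library and 3 to 6 with 1 library left out, since only 3 arms were tested with 2 hemispheres. Leaving out a hemisphere raised the log2 fold changes of the precursors, to 3.11 at most. miR-181c-3p did not pass with library totals, with DESeq2 or without serum 1 or 2. With the replicate block the counts were 6 and 6. For these alternative settings the shares over all precursors and strands were not computed. Whether the shared numbers mark the same rats could not be decided from the data. Correlations of deviations over 73 precursors were 0.10, -0.14 and -0.03 for equal numbers and -0.09 to 0.13 for unequal ones. Counting error in the small serum libraries can hide a pairing.

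Brain was above lung for 6 precursors in RPM and for 2 with DESeq2 size factors. The a-1 part of the a copies in thymus was 100% by 3p reads and 50.6% by precursor reads. With miR-3570 reads added, an alternative chosen after seeing the data, the 3p share of mir-181a was 1.24% in thymus and 0.343% in brain. Depth limited serum most, where the 3p strands had 0 to 2 reads a library. The cause of these changes was not tested.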
